A study of Mus musculus with 18 samples.

Results

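The class B peptide hormone receptors examined here were 10 genes of the 45151 gene symbols that the libraries share: Pth1r, Sctr, Gipr, Glp1r, Glp2r, Gcgr, Adcyap1r1, Vipr1, Vipr2 and Calcrl. They were taken by symbol from the expression profiles of all 18 RNA-seq libraries. The libraries were made from wild type male C57BL/6J mice aged 16 weeks that were fed regular chow, and no other treatment is stated. Mature adipocytes from inguinal white fat (iWAT, 6 libraries) and from epididymal white fat (eWAT, 6 libraries) had been freed by collagenase digestion and taken from the floating fraction. Brown adipose tissue (BAT, 6 libraries) had been frozen whole, with all its cells, so that in comparisons with BAT the depot cannot be told apart from the preparation. The number in each library's title was taken as the number of the mouse. The study asked which receptors linked to the stimulatory G protein Gs are present in fat, and the comparison over the 3 depots describes where each class B receptor lies.

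Class B receptors carry a large extracellular domain that captures the end of a peptide hormone, whose other end then reaches into the membrane bundle and switches the receptor on. Most of them couple to Gs, raise cyclic AMP and activate protein kinase A, which in adipocytes drives the breakdown of stored triglyceride and, in brown fat, heat production. Glucagon, secretin, parathyroid hormone, the pituitary adenylate cyclase-activating peptide PACAP and the vasoactive intestinal peptide VIP all act through members of this class. Calcrl is unusual in that its product needs an accessory membrane protein: with RAMP1 it is the receptor for calcitonin gene-related peptide (CGRP), and with RAMP2 or RAMP3 it is a receptor for adrenomedullin. Calcrl is best known from blood and lymphatic vessels.

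The files give a read count per row and the RPKM, which is the count scaled to the row's length and to the library's total reads. The iWAT and BAT files merge the exons of a gene into 1 row. In eWAT each transcript has a row of its own, a read may be counted on several of them, and the most-read transcript of each receptor was used here. The way of counting follows the depot, so that a difference between eWAT and another depot cannot be told apart from a difference in counting. For that reason each eWAT difference is given with read counts set against row length, as the main value, and again as plain counts without that offset. The merged row was never the shorter of the pair, and for Calcrl it was 1.90 times as long, against 1.25 times for Pth1r and 1.06 times for Adcyap1r1, while the row of Sctr was the same. Total reads were between 22929576 and 34512470 per library. Adipoq (adiponectin) had a median RPKM of 289.5 in BAT, against 1862 in iWAT and 1863 in eWAT. Ucp1, the uncoupling protein of brown fat, was at most at 5.76 RPKM in white adipocytes and at least at 969 in BAT, so both label checks followed the depot. Some libraries stood apart in markers of other cells. The eWAT libraries of mice 14 and 15 held a summed RPKM of 76.1 and 70.9 for 5 epididymis genes, which had 0 reads in iWAT. The eWAT library of mouse 15 held 693 for 5 macrophage genes, against at most 146 in the other eWAT libraries. The BAT library of mouse 12 held 1340 for 5 skeletal muscle genes, against at most 119 in the other BAT libraries.

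Adcyap1r1, which encodes the PACAP receptor PAC1, is the member whose isoforms the eWAT rows separate by a defined piece of sequence. Its transcripts can hold either, both or none of 2 alternative exons of 84 bases, known as hip and hop exons, which add 28 codons to the part of the receptor that faces the G protein. On the plus strand of mm9 the first lies at chr6:55437653-55437736 and the second at chr6:55441221-55441304, between the shared exons chr6:55434936-55435027 and chr6:55444071-55444200. The lines below show the joins, read from the mm9 genome, 5′ to 3′. Lower case marks the 20 bases that end the upstream exon and the 20 that start the downstream exon, and capitals mark the alternative exon.
no cassette: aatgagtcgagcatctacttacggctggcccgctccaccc
first cassette: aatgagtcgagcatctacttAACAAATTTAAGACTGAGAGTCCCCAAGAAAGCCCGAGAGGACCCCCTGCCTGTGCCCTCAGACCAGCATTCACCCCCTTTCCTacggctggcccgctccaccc
second cassette: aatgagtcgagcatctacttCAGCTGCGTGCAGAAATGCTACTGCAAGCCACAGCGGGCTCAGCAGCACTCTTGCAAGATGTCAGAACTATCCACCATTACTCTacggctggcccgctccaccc
The 2 cassettes share the same base at 26 of their 84 positions.

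In eWAT, transcript rows that differed by the second cassette alone differed by 8 reads over the 6 libraries (0, 1, 5, 1, 0 and 1 in mice 7, 8, 11, 13, 14 and 15). The same 8 reads were found in an Ensembl and in a RefSeq pair of rows. If reads had covered the RefSeq transcript evenly, the 84 bases would have held 46.7 reads, and by the sparser Ensembl transcript 19.4. Rows that differed by the first cassette together with exons of 21 and 42 bases differed by 0 reads, where even coverage of the Ensembl transcript would have given 37.6. The 37.6 is for the cassette and both short exons together. Reads counted within the cassettes were few or absent in these adipocytes. The rule by which reads across exon joins were counted is not given in the sources used here, coverage is not even along a transcript, and the merged rows of iWAT and BAT do not separate the cassettes. If reads across joins were not counted, exons this short could hold few reads whatever their use. The counts thus do not show how often the cassettes were used.

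By mean RPKM per depot, which allows for row length, 3 of the 10 receptors reached 1 in iWAT (Sctr, Pth1r, Adcyap1r1), 4 in eWAT (Pth1r, Calcrl, Adcyap1r1, Sctr) and 2 in BAT (Pth1r, Sctr). Pth1r in BAT was the highest of all, with a mean RPKM of 7.98, a level reached by 7.02% of all symbols there. In BAT the levels followed a clear order: Pth1r lay above Sctr, Sctr above Calcrl, Adcyap1r1 above Gipr, Gipr above Vipr2 and Vipr2 above Gcgr in all libraries. Calcrl and Adcyap1r1 overlapped, as did Vipr1 and Glp2r. Gcgr lay above Vipr1 by RPKM, but with 2 to 4 reads against 1 to 4, on rows of 2733 and 6131 bases. In eWAT the ranges of every pair of neighbours in the order overlapped, except that Vipr1 lay above Glp1r. In iWAT the ranges of Pth1r and Adcyap1r1 did not overlap, nor did those of Calcrl and Gipr, and the remaining neighbours overlapped. Glp1r, the receptor for the incretin GLP-1, was practically absent from the reads: a single read in 1 of the 18 libraries, from eWAT of mouse 7.

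**Figure D1:**
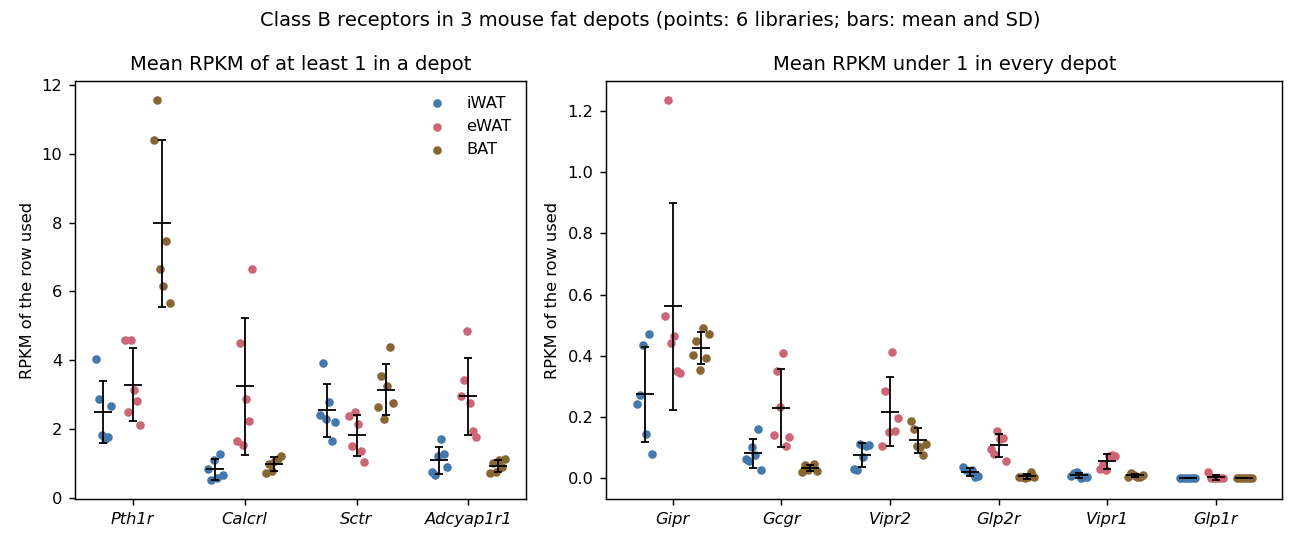
RPKM of the 10 receptors in the 6 libraries of iWAT, eWAT and BAT, with receptors of a mean RPKM of at least 1 in some depot on the left and the rest on the right, on separate linear scales; points are libraries and bars give the mean and SD. Pth1r is highest in BAT (5.68 to 11.6), Calcrl and Adcyap1r1 in eWAT, and 1 eWAT library stands apart for Gipr at 1.23.

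Between iWAT and BAT, 6 of the 10 receptors had enough reads for the test (at least 10 in at least 6 libraries), and 5 were lower in iWAT: Pth1r, Vipr2, Gipr, Sctr and Calcrl. None was higher. Of all 19732 rows tested, 67.6% passed the same threshold (edgeR's quasi-likelihood test, Benjamini-Hochberg adjusted p under 0.05), 33.6% as lower and 34.0% as higher in iWAT, so a call by itself says little here. The median log2 difference of the 6 receptors was -0.72, against 0.01 over all rows. The calls rest in part on the scaling between libraries. With library totals alone, in place of the trimmed mean of M-values (TMM), the median of all rows moved to 0.27 and that of the 6 receptors to -0.46. All 5 kept a negative sign, at log2 -1.69 for Pth1r, -0.68 for Vipr2, -0.61 for Gipr, -0.31 for Sctr and -0.24 for Calcrl, but Pth1r alone kept its call (adjusted p 2.33e-05), where 70.1% of all rows passed, 46.2% as higher and 24.0% as lower. With the mouse number as a replicate block, 3 of 5 receptors that could be fitted were lower, beside 57.9% of all rows called, and Sctr lost its call (log2 -0.55, adjusted p 0.0942). Vipr2 had too few reads for that fit.

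Between eWAT and BAT, 5 of 7 receptors tested passed, where 73.9% of all 18383 symbols did. Gcgr, Calcrl and Adcyap1r1 were higher in eWAT (39.9% of all symbols were), and Pth1r and Sctr were lower (34.0% of all symbols were). The median of the 7 was 0.06, against 0.08 over all symbols. Without the length offset 4 of the 7 passed, with 70.3% of all symbols, and Calcrl was the one that no longer did. With library totals alone 6 passed, 4 higher and 2 lower, while 80.1% of all symbols did (63.0% higher and 17.1% lower) and their median moved to 0.81. Between iWAT and eWAT, 5 of 7 passed, where 52.4% of all symbols did. Calcrl, Vipr2, Adcyap1r1 and Gcgr were lower in iWAT (28.3% of all symbols were) and Sctr was higher (24.2% were). The median of the 7 was -1.0, against 0.04 over all symbols. Without the length offset the 4 lower calls stood, against 25.6% of all symbols called in either direction, and Sctr no longer passed. With library totals alone the split was 5 lower and 0 higher, that of all symbols was 47.0% lower and 5.19% higher (52.2% called), and their median moved to -0.39. With the block by mouse number 6 receptors could be fitted, of which 3 passed between eWAT and BAT (65.3% of all symbols) and 2 between iWAT and eWAT (35.9%), and Gcgr had too few reads for that fit. The comparisons share libraries and are not independent of each other. Gcgr entered the eWAT fits mainly through eWAT itself, the depot where it is highest, and without it 4 of 6 receptors passed in both comparisons. Vipr2, still among the 4 between iWAT and eWAT, passed the filter through eWAT and BAT and is no support there.

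**Figure D2:**
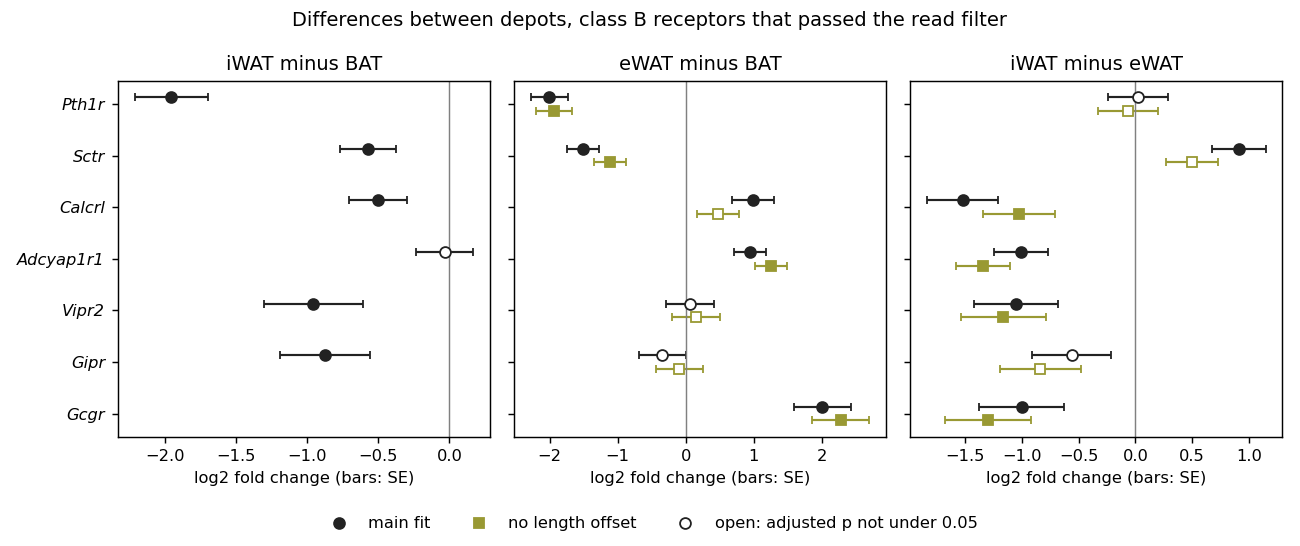
Log2 differences between depots with their SE for the 7 receptors that passed the filter on reads, in the main fit (circles) and with plain counts without the length offset (squares); filled symbols passed an adjusted p of 0.05 and open ones did not. Pth1r lies near -2 against BAT in both white depots, and Calcrl and Sctr shift most when row length is left out.

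Pth1r encodes the receptor for parathyroid hormone and the parathyroid hormone-related protein, known from bone and kidney and able to drive lipolysis in fat cells. The gene lies on the minus strand of chromosome 9 (mm9, chr9:110624589-110649649). In BAT its RPKM was 5.68 at the lowest, 7.05 at the median and 11.6 at the highest, from 469 to 1104 reads per library. In iWAT it was 1.72, 2.25 and 4.02, and in eWAT 2.1, 2.98 and 4.60. No white fat library reached the lowest BAT library. Pth1r was 3.88-fold lower in iWAT than in BAT (log2 -1.96 ± 0.26 SE, adjusted p 1.18e-05) and 4.02-fold lower in eWAT than in BAT (log2 -2.01 ± 0.27 SE, adjusted p 2.16e-06). The eWAT value hardly moved without the length offset (log2 -1.94 ± 0.27 SE, adjusted p 3.62e-06). Its size did depend on the processing: over 23 other settings it ran from log2 -2.14 to -1.06, and it stayed called in each. Mean RPKM, without the scaling of the fit, was 3.29 ± 1.07 in eWAT and 7.98 ± 2.42 in BAT (SD, n = 6 each). Between the 2 white depots the difference was 0.02 ± 0.27 SE on the log2 scale (adjusted p 0.951), and its sign turned under several settings. Within BAT, the libraries of mice 6 and 7 were the highest, at 10.4 and 11.6. Summed markers of the brown adipocyte (5 genes) ranged from 1739 to 2279 RPKM in BAT and up to 32.1 in iWAT and 4.95 in eWAT. Those of the Schwann cell (4 genes) ranged from 21.8 to 44.5 in BAT, from 3.25 to 8.19 in iWAT and from 1.45 to 4.18 in eWAT. Both lists were highest in BAT, as Pth1r was. The brown adipocyte sum also lay higher in every iWAT library (22.4 to 32.1) than in any eWAT library (2.06 to 4.95), where Pth1r was not called. Within BAT, mouse 7 held the lowest brown adipocyte sum (1739) and mouse 6 the lowest Schwann cell sum (21.8). The part of these cells in the difference was not tested. In bulk samples, fewer cells of a type and less RNA per cell cannot be told apart. The eWAT rows list 3 RefSeq transcripts of Pth1r with different first exons, which differed by 1 to 7 reads in a library, so that the start in use could not be resolved. Over the 18 libraries, with depot means removed, the log2 RPKM of Pth1r was most like that of Vgll4 (Pearson r = 0.86), Hsd11b1 (0.83) and Lrig1 (0.81) among 10296 symbols. These and the following correlations describe libraries that share depth and cell makeup.

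Sctr encodes the secretin receptor, through which the gut hormone secretin stimulates lipolysis and brown fat heat production. It lies on the plus strand of chromosome 1 (chr1:121903557-121960113), and its row is the same in all 3 depots. The length offset still moves its fitted values through the scaling that the other genes set. Its RPKM was 2.29, 2.999 and 4.38 in BAT (lowest, median, highest), 1.63, 2.35 and 3.91 in iWAT, and 1.05, 1.82 and 2.49 in eWAT. The ranges of all 3 depots overlapped. Sctr was 2.84-fold lower in eWAT than in BAT (log2 -1.51 ± 0.23 SE, adjusted p 1.22e-05), and 2.16-fold lower in the fit without length offset (log2 -1.11 ± 0.23 SE, adjusted p 0.000292). Its mean RPKM, which takes no such scaling, was 1.82 ± 0.600 in eWAT and 3.14 ± 0.750 in BAT (SD, n = 6 each). It was 1.49-fold lower in iWAT than in BAT (log2 -0.57 ± 0.20 SE, adjusted p 0.0205) and 1.88-fold higher in iWAT than in eWAT (log2 0.91 ± 0.23 SE, adjusted p 0.00325), a difference that was 0.50 ± 0.23 SE (adjusted p 0.122) without the length offset. The eWAT libraries of mice 14 and 15, which held epididymis markers, were the lowest for Sctr at 1.35 and 1.05, and the BAT library of mouse 12, which held muscle markers, was the highest. Without those 3 libraries Sctr was still lower in eWAT than in BAT (log2 -1.19, adjusted p 0.000219). The symbols most like it were Bbs2 (r = 0.86), Stat5b (0.83) and Fgfr1 (0.83).

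Adcyap1r1 lies on the plus strand of chromosome 6 (chr6:55401972-55451449), and PACAP, its ligand, is released by sympathetic and sensory nerves. Its RPKM was 1.77, 2.85 and 4.85 in eWAT (lowest, median, highest), from 320 to 878 reads. In iWAT it was 0.661, 1.05 and 1.72, and in BAT 0.726, 0.938 and 1.12. Every eWAT library lay above every library of the other depots by RPKM. In reads scaled to the total alone, the lowest eWAT library, of mouse 15, lay below the highest iWAT library, of mouse 13. Adcyap1r1 was 1.93-fold higher in eWAT than in BAT (log2 0.95 ± 0.24 SE, adjusted p 0.00137), and 2.39-fold higher without the length offset. It was 2.01-fold lower in iWAT than in eWAT (log2 -1.01 ± 0.24 SE, adjusted p 0.00160), and 2.54-fold lower without the length offset. Blocked by mouse number, over 5 pairs, the latter difference was -0.93 (adjusted p 0.0741). Between iWAT and BAT the difference was -0.03 ± 0.20 SE (adjusted p 0.891), and with library totals alone it was 0.23 (adjusted p 0.358). The highest eWAT library, of mouse 11, also held the highest sum of 4 mesothelial markers, 30.1, and these markers summed to 15.2 to 30.1 in eWAT, 3.70 to 4.59 in iWAT and 11.1 to 13.4 in BAT. Nearly all of the sum in iWAT and BAT was Lrrn4. Msln had 0 reads in iWAT, and in BAT the median RPKM was 0 for Msln and Upk3b and 0.0192 for Krt19, against 1.13, 2.88 and 0.990 in eWAT. Their part in the difference was not tested. Without the libraries that stood apart the eWAT value was 1.15 against BAT (adjusted p 0.000398). Zfp410 (r = 0.84), Parva (0.83) and Fbxo21 (0.83) were most like it.

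Vipr1 and Vipr2 encode the VPAC1 and VPAC2 receptors, which bind VIP and PACAP about equally well. Vipr2 (chr12:117316196-117384734, plus strand) was the better read of the pair, yet weak. It had 12 to 42 reads in eWAT, 3 to 15 in iWAT and 10 to 27 in BAT. As 3 iWAT libraries reached 10 reads, it passed the filter over all 18 libraries through eWAT and BAT. In the fit of iWAT and BAT it passed through BAT, where it is higher. Both tests of iWAT, against BAT and against eWAT, are thus given as fitted values and not as support. Its RPKM was 0.105, 0.177 and 0.411 in eWAT (lowest, median, highest), 0.0280, 0.0871 and 0.111 in iWAT, and 0.0768, 0.110 and 0.187 in BAT, and the ranges overlapped. Vipr2 was 1.94-fold lower in iWAT than in BAT (log2 -0.96 ± 0.35 SE, adjusted p 0.0250) and 2.07-fold lower in iWAT than in eWAT (log2 -1.05 ± 0.37 SE, adjusted p 0.0240). The first call was lost without iWAT mouse 7 (adjusted p 0.0514) or BAT mouse 6 (0.0614), and the second without iWAT mouse 7 (0.0521), iWAT mouse 11 (0.0519) or eWAT mouse 13 (0.0779). With the block, the second was -1.07 (adjusted p 0.0698). Between eWAT and BAT the difference was 0.06 ± 0.35 SE (adjusted p 0.887), and it reached -1.26 (adjusted p 0.00460) when the reads of all eWAT transcripts were summed. A noncoding row on the opposite strand, with 0 to 12 reads, overlaps Vipr2, and the kit named is not a strand-marking one, so their reads cannot be told apart.

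Vipr1 (chr9:121551834-121582072, plus strand) had 4 to 12 reads per library in eWAT, 0 to 4 in iWAT and 1 to 4 in BAT. As it failed the filter on reads, its RPKM was compared with a two-sided exact permutation test over the 12 libraries of a comparison. Its mean RPKM of 0.0553 ± 0.0229 in eWAT lay above 0.00966 ± 0.00817 in iWAT and 0.00960 ± 0.00564 in BAT (SD, n = 6 each). No eWAT library overlapped either depot, and the exact permutation p of 0.0021645 (adjusted 0.00541 over 10 tests) is the smallest that these groups can give. The difference was lost with the eWAT transcript of highest RPKM in place of the most-read one (adjusted p 0.101). Macrophage markers summed to 52.2 to 693 RPKM in eWAT, 10.9 to 63.7 in iWAT and 5.16 to 9.17 in BAT. Their median was highest in eWAT, as that of Vipr1 was. Every iWAT sum lay above every BAT sum, whereas the exact permutation p of Vipr1 between iWAT and BAT was 0.998. Within eWAT, mice 14 and 15 had a Vipr1 RPKM of 0.0767 and 0.0747 at macrophage sums of 57.4 and 693. The part of these cells was not tested.

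Calcrl (chr2:84170783-84265568, minus strand) had the largest SD of RPKM of the members within eWAT, 1.99. Its RPKM was 1.54, 2.55 and 6.64 there (lowest, median, highest), with mice 15 and 8 at 6.64 and 4.49. In iWAT it was 0.517, 0.750 and 1.28, and in BAT 0.729, 1.02 and 1.22. All eWAT libraries lay above those of the other depots by RPKM, whereas reads scaled to the total alone, without length, overlapped. Calcrl was 2.87-fold lower in iWAT than in eWAT (log2 -1.52 ± 0.31 SE, adjusted p 0.000545) and 2.04-fold lower without the length offset (log2 -1.03 ± 0.32 SE, adjusted p 0.0238). It was 1.99-fold higher in eWAT than in BAT (log2 0.99 ± 0.31 SE, adjusted p 0.00724), but 0.48 ± 0.31 SE on the log2 scale without the length offset (adjusted p 0.184) and 0.47 with the block (adjusted p 0.152). Without the eWAT library of mouse 15 the differences were -1.17 for iWAT against eWAT (adjusted p 0.000900) and 0.64 for eWAT against BAT (adjusted p 0.0283). It was 1.42-fold lower in iWAT than in BAT (log2 -0.50 ± 0.20 SE, adjusted p 0.0415), and this call was lost when any one of 6 libraries was left out (iWAT mice 7, 11, 13 and 15, BAT mice 12 and 13; adjusted p 0.0637 to 0.0976). Markers of endothelium, where Calcrl is known to be high, summed over 7 genes to 143 to 324 RPKM in eWAT, 55.0 to 309 in iWAT and 49.0 to 119 in BAT. Lymphatic endothelial markers (4 genes) summed to 2.86 to 11.9, 1.19 to 6.09 and 1.21 to 2.55. Of the 7 endothelial genes Cldn5 had the largest median in iWAT, 47.6, against 21.3 in BAT. Between iWAT and BAT, 8 rows of these genes were tested, and 4 were lower and 1 higher in iWAT, beside 33.6% and 34.0% of all rows. Their median log2 difference was -0.73. The eWAT library of mouse 15, highest for Calcrl, held the highest macrophage sum and an endothelial sum of 150. Its lymphatic sum of 11.9 was the highest through Pdpn alone (9.23), with Prox1 at 0.0368, while that of mouse 8 held the highest endothelial sum, 324. In iWAT the highest library, of mouse 14, held the highest endothelial sum as well. The part of these cells in the differences was not tested. Nrp2 (r = 0.93), Parvb (0.93) and Wipf1 (0.92) were most like Calcrl over the 18 libraries.

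The accessory proteins of Calcrl differed in level and in depot. Ramp2 was by RPKM the most abundant of the 3, with medians of 25.2 in eWAT (18.8 to 46.2), 16.4 in iWAT (6.14 to 36.7) and 9.77 in BAT (6.25 to 18.1). All eWAT libraries lay above all BAT libraries, yet the main fit gave 0.65 ± 0.33 SE (adjusted p 0.0818) and the fit without length offset 1.05 ± 0.33 SE (adjusted p 0.00910). Ramp1 had 8 to 153 reads in eWAT, 0 to 8 in iWAT and 4 to 139 in BAT. The highest eWAT library was that of mouse 15 (RPKM 1.83) and the highest BAT library that of mouse 12 (1.48), the libraries with macrophage and muscle markers. Ramp3 had 3 to 72 reads in eWAT, 1 to 5 in iWAT and 8 to 28 in BAT. No iWAT library reached 10 reads for Ramp1 or Ramp3, so both passed the filter through eWAT and BAT, where they are higher. Their tests for iWAT against eWAT are thus given as fitted values and not as support. They were log2 -3.18 ± 1.02 SE for Ramp1 (adjusted p 0.0142) and -2.59 ± 0.67 SE for Ramp3 (adjusted p 0.00344). Without the eWAT library of mouse 15 the Ramp1 call was lost (log2 -2.03, adjusted p 0.0797). Crcp, which encodes a cytoplasmic component of the CGRP receptor, had a mean RPKM of 6.998 in eWAT, above 5.85 in iWAT and 5.44 in BAT. The main fit placed it lower in eWAT than in BAT (log2 -0.37 ± 0.12 SE, adjusted p 0.00878), against the order of its RPKM and with -0.07 ± 0.11 SE (adjusted p 0.604) without the length offset. With library totals alone it was higher in eWAT (log2 0.36, adjusted p 0.0107), so its direction depends on the scaling.

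Adm, which encodes adrenomedullin, a vasodilator peptide, was the only ligand of the class with a mean RPKM of at least 1. Its RPKM was 15.5, 26.3 and 39.4 in iWAT (lowest, median, highest), 8.50, 14.03 and 33.1 in eWAT and 0.269, 0.393 and 1.67 in BAT. No white adipocyte library overlapped a BAT library. Adm was 31.3-fold higher in iWAT than in BAT (log2 4.97 ± 0.40 SE, adjusted p 8.16e-08) and 14.9-fold higher in eWAT than in BAT (log2 3.90 ± 0.43 SE, adjusted p 1.57e-07). Its row is the same in all depots. The difference of 1.05 ± 0.36 SE between iWAT and eWAT (adjusted p 0.0213) was 0.64 (adjusted p 0.207) without the length offset, 0.63 (adjusted p 0.165) with library totals alone and 0.91 (adjusted p 0.0559) without iWAT mouse 15. Calca, which encodes calcitonin and CGRP, had 14 to 36 reads in iWAT, 13 to 25 in eWAT and 1 to 14 in BAT (median 6). It passed the filter on reads through white adipocytes, where it is high. Its tests against BAT are thus given as fitted values and not as support. They were log2 1.76 ± 0.37 SE in iWAT (adjusted p 0.000744) and 1.25 ± 0.35 SE in eWAT (adjusted p 0.00369). Within eWAT the libraries ran apart: mouse 15, highest for Calcrl, Ramp1 and Ramp3, was the lowest for Adm.

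**Figure D3:**
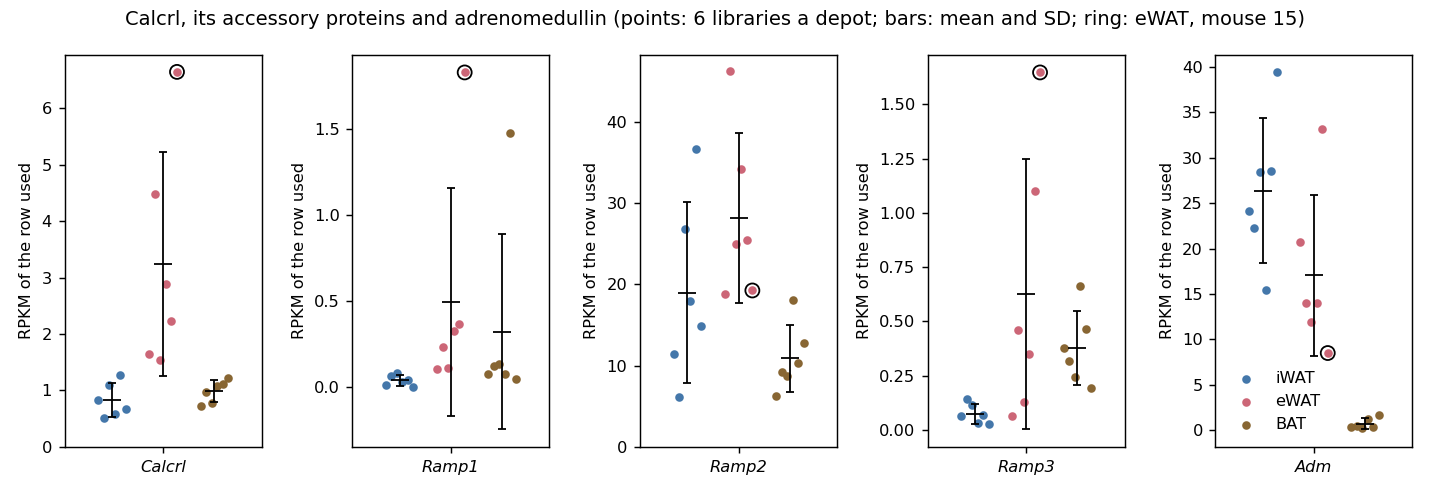
RPKM of Calcrl, of the accessory genes Ramp1, Ramp2 and Ramp3, and of Adm in the 6 libraries of each depot, each on its own linear scale; bars give the mean and SD and the ring marks the eWAT library of mouse 15. Adm lies between 8.50 and 39.4 in white adipocytes and at most at 1.67 in BAT, and the ringed library is highest for Calcrl, Ramp1 and Ramp3.

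The receptors of the glucagon family were weak throughout. Gipr, the receptor for the incretin GIP (chr7:19742026-19751476, minus strand), had 27 to 44 reads in BAT, 6 to 43 in iWAT and 24 to 108 in eWAT. Its RPKM was 0.353, 0.426 and 0.491 in BAT (lowest, median, highest), 0.0809, 0.258 and 0.472 in iWAT, and 0.344, 0.454 and 1.23 in eWAT. BAT was the evenest depot for Gipr, and iWAT ran from low values up to those of BAT. Gipr was 1.84-fold lower in iWAT than in BAT (log2 -0.88 ± 0.32 SE, adjusted p 0.0242), a call lost without iWAT mouse 13 (adjusted p 0.0528). The difference between eWAT and BAT was -0.34 ± 0.34 SE (adjusted p 0.372), and it was 0.40 with library totals alone. That between iWAT and eWAT was -0.56 ± 0.35 SE (adjusted p 0.186). Without the length offset the 2 differences were -0.09 (adjusted p 0.825) and -0.84 (adjusted p 0.0948).

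Gcgr, the glucagon receptor, through which glucagon drives lipolysis in rodent fat cells (chr11:120392013-120400402, plus strand), had 7 to 31 reads in eWAT, 2 to 14 in iWAT and 2 to 4 in BAT. Its RPKM was 0.105, 0.188 and 0.410 in eWAT (lowest, median, highest), 0.0283, 0.0697 and 0.161 in iWAT, and 0.0212, 0.0317 and 0.0471 in BAT. No eWAT library overlapped a BAT library. It reached 10 reads in 5 eWAT libraries, 1 iWAT library and 0 BAT libraries, so that it passed the filter through the depot where it is high, and its tests with eWAT are given as fitted values and not as support. The fitted difference between eWAT and BAT was 4.03-fold (log2 2.01 ± 0.42 SE, adjusted p 0.000279), and 4.86-fold without the length offset. In 5 of the 12 fits that left out 1 library of this comparison Gcgr no longer passed the filter, and in the other 7 the log2 difference was 1.90 to 2.15. The fitted value was 2.003-fold lower in iWAT than in eWAT (log2 -1.002 ± 0.38 SE, adjusted p 0.0320), a call lost without iWAT mouse 7, 11, 13 or 15 (adjusted p 0.0546 to 0.0713) and in DESeq2 (adjusted p 0.0703). Between iWAT and BAT, where it failed the filter, mean RPKM was 0.0814 ± 0.0460 against 0.0332 ± 0.0104 (SD, n = 6 each), higher in iWAT by the exact permutation test (p = 0.0108, adjusted 0.0216). Its level in BAT rests on counts of 2 to 4 reads per library.

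Glp2r, the receptor for the gut growth factor GLP-2 (chr11:67475004-67584655, minus strand), had 9 to 22 reads in eWAT, 1 to 5 in iWAT and 0 to 4 in BAT. Its mean RPKM was 0.108 ± 0.0373 in eWAT, 0.0210 ± 0.0127 in iWAT and 0.00726 ± 0.00761 in BAT (SD, n = 6 each). All eWAT libraries lay above those of both other depots, each time with the smallest exact permutation p of 0.0021645 (adjusted 0.00541). Between iWAT and BAT the exact permutation p was 0.0346 (adjusted 0.0577). The merged row overlaps the span of Gas7 on the opposite strand (55 to 384 reads in iWAT and BAT libraries). The eWAT transcript ends before that span, with its 3′ end at 67519932. Glp1r (chr17:31038785-31073455, plus strand) had 0 reads in the 12 libraries of iWAT and BAT, which allows an RPKM of up to 0.0577 to 0.0868 per library if 3 reads are taken as the limit of detection. Such limits cover counting error only.

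**Figure D4:**
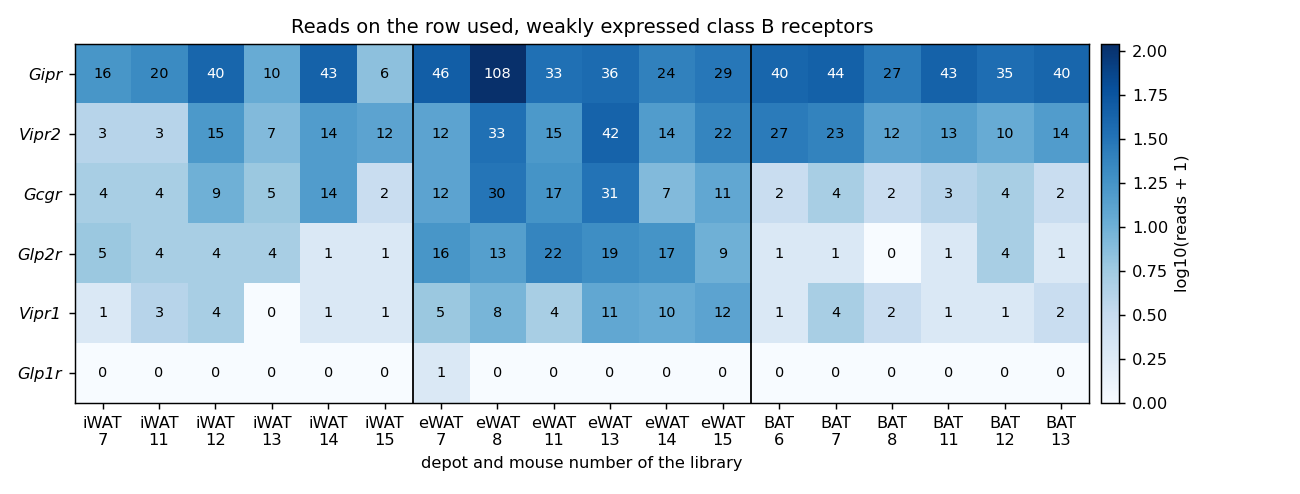
Reads on the row used for the 6 weakest receptors in each of the 18 libraries, by depot and mouse number; the colour gives log10(reads + 1) and the number in each cell the reads. Gcgr (7 to 31) and Glp2r (9 to 22) have more reads in every eWAT library than in any BAT library, Gipr stands at 108 in eWAT of mouse 8, and Glp1r has 1 read in all.

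Beyond these, a list of 33 genes of the pathway was examined, comprising 18 ligands, 4 accessory proteins, 5 other class B receptors and 6 enzymes that process the peptides. Of the ligands, 16 had fewer than 10 reads in every library and 6 had none, among them Pth and Adcyap1, which encode ligands of Pth1r and Adcyap1r1. Pthlh, which encodes the other ligand of Pth1r, had 27 reads, 17 of them in 5 of the 6 BAT libraries. The ligand genes Vip, Sct, Gip and Gcg had 10, 5, 9 and 5 reads over all 18 libraries. Of the other receptors, 4 of 5 stayed below 10 reads in every library. The exception was Crhr2, a receptor of the urocortins, with 77 of its 102 reads in the BAT library of mouse 12, the one with muscle markers. Between iWAT and BAT, 4 of 8 pathway genes tested were higher in iWAT and 0 lower, where 34.0% of all rows were higher and 33.6% lower. Calca, which passed the filter through white adipocytes, is among the higher calls here and for eWAT against BAT, and is no support. Between eWAT and BAT, 5 of 10 were higher and 2 lower, beside 39.9% and 34.0% of all symbols, and with library totals alone 7 were higher and 0 lower, beside 63.0% and 17.1%. Between iWAT and eWAT 2 of 10 were higher and 5 lower in iWAT, beside 24.2% and 28.3% of all symbols, and with library totals alone 1 was higher and 5 lower, beside 5.19% and 47.0%. Ramp1 and Ramp3, which passed the filter through eWAT and BAT, are among the lower calls between iWAT and eWAT, and are no support.

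Of the 6 enzymes, 4 were tested, while Pcsk1 and Pcsk2 had fewer than 10 reads in every library. Pam, which amidates the ends of peptides such as adrenomedullin, had a median RPKM of 24.7 in eWAT, 6.69 in iWAT and 1.33 in BAT. It was higher than in BAT in both white depots (log2 1.96 ± 0.19 SE in iWAT, adjusted p 6.35e-07; log2 3.47 ± 0.19 SE in eWAT, adjusted p 1.12e-11), and the eWAT value was 2.59 ± 0.19 SE without the length offset. It was lower in iWAT than in eWAT (log2 -1.54, adjusted p 1.08e-06, and -0.68 without the length offset). Ece1, an endopeptidase that processes endothelin and degrades CGRP inside cells, was likewise higher in iWAT (log2 0.94 ± 0.10 SE, adjusted p 9.69e-07) and eWAT (log2 1.41 ± 0.13 SE, adjusted p 7.79e-09) than in BAT. Between iWAT and eWAT it was lower in iWAT (log2 -0.50 ± 0.12 SE, adjusted p 0.00245), a call lost without the length offset (log2 -0.16, adjusted p 0.385) and with the block (adjusted p 0.0854). Mme, encoding neprilysin, which cleaves several of these hormones, had a mean RPKM of 16.9 in eWAT and 16.7 in BAT, with overlapping ranges. The fit with TMM gave log2 -0.71 ± 0.18 SE for eWAT against BAT (adjusted p 0.00125) and that with library totals alone 0.022 (adjusted p 0.909), so this difference too depends on the scaling. Mme was higher in iWAT than in eWAT (log2 0.86 ± 0.18 SE, adjusted p 0.000505), and between iWAT and BAT the block brought it past the threshold (log2 0.29, adjusted p 0.0478). Dpp4, encoding the peptidase that inactivates the incretins, was higher in eWAT than in BAT (log2 1.76 ± 0.38 SE, adjusted p 0.000360) and lower in iWAT than in eWAT (log2 -2.11 ± 0.38 SE, adjusted p 0.000168). Without the length offset Dpp4 was at 0.99 ± 0.37 SE against BAT, and the calls of Pam, Mme and Dpp4 with eWAT stood.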

How the data were processed

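Total RNA (RIN above 8) of 6 iWAT, 6 eWAT and 6 BAT libraries was turned into libraries by the authors (NEBNext Ultra RNA kit) and read on a HiSeq instrument. The reads were analysed with the Genomatix Genome Analyzer on mm9, and the submitters' processing notes also name cutadapt (1.16) and HISAT2 (2.1.0). The counting rule and annotation version are not given in the sources used here. The authors deposited raw read counts for each row. The RPKM values that the authors deposited beside them equal these counts over row length and over 1 total per library (22929576 to 34512470 reads).

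Groups followed the depot that the labels give. For iWAT and BAT, merged rows holding 10 or more reads in 6 or more libraries were fitted with edgeR (4.0.16, glmQLFit and glmQLFTest, R 4.3.3), TMM factors and the totals above. For eWAT comparisons 1 row per symbol was fitted over all 18 libraries, with row length as an offset. A Benjamini-Hochberg adjusted p under 0.05 over all rows was the threshold, and SE was derived from F. Members below the filter were compared by exact permutation of mean RPKM (924 splits, scipy 1.17.1). The code was tested on simulated data. Alternatives were DESeq2 (1.42.0), limma (3.58.1) on log2(RPKM + 0.1) or (RPKM + 1), other filters, rows and scalings, and left-out libraries.

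For Ramp2 the row on chromosome 11 was used, because the most-read row of that symbol, on chromosome 19, lies in the Malat1 locus. Cassette and overlap counts were added after the values were seen. The genes named are the members, pathway genes that passed a test or had a mean RPKM of at least 1, Adipoq and Ucp1, and the 3 symbols most like each member with a mean RPKM of at least 1. The remaining genes named, all with few reads, were chosen after their values were seen. Members and lists were chosen with earlier results of these data known. The mouse number gave 4, 4 and 5 pairs. Deviations from depot means of same-numbered libraries correlated at 0.03 on average for iWAT with BAT, -0.04 for eWAT with BAT and -0.10 for iWAT with eWAT, and the block was used as an alternative. Nothing else states how the mice relate, so p-values measure the spread between these libraries.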

Additional observations from a re-analysis of the deposited data

Results flagged for a closer look

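Gipr in the eWAT library of mouse 8 had an RPKM of 1.23 (108 reads), far from the other 5 eWAT libraries, which lay between 0.344 and 0.529. Its gap to the nearest library was 0.793 of the whole range. It was the 1 value set apart in this way among 26 groups of 6 libraries examined, and chance sets apart about 1 group in 20. The same library held the highest endothelial sum of eWAT, 324, and 30 and 33 reads of Gcgr and Vipr2. Without it the Gipr difference between iWAT and eWAT was -0.21 on the log2 scale, against -0.56 with it.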

How the results depend on the processing

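Of the members tested, 5 of 6 were called between iWAT and BAT (67.6% of all rows), among them Vipr2, which passed the filter through BAT. The number became 3 of 5 with the mouse number as a replicate block (57.9%), 3 of 9 without a filter on reads (42.1%), 1 of 6 without TMM factors (70.1%), 1 of 6 with a minimum fold of 2 (32.2%), 2 of 6 with limma on log2(RPKM + 0.1) (70.7%) and 2 of 6 on log2(RPKM + 1) (70.1%), and 3 to 5 when single libraries were left out. Between eWAT and BAT it was 5 of 7 (73.9% of all symbols), and became 3 of 6 with the block (65.3%), 8 of 9 with eWAT rows summed (82.9%), 1 of 1 with shared rows only (67.9%), 3 of 7 with a minimum fold of 2 (44.6%) and 4 to 5 without single libraries. Between iWAT and eWAT it was 5 of 7 (52.4%), and became 2 of 6 with the block (35.9%), 3 of 6 with the eWAT row of highest RPKM (60.3%), 0 of 1 with shared rows only (edgeR, 12.9%), and 3 to 5 without single libraries. The shared rows held Sctr alone among the members, with an unadjusted p of 0.0260 between iWAT and eWAT. For the pathway list the counts were 4 of 8, 7 of 10 and 7 of 10. They became 9 of 25 between iWAT and BAT without a filter (42.1%), 2 of 2 for eWAT against BAT with shared rows only (67.9%), and for iWAT against eWAT 0 of 2 with shared rows only (edgeR, 12.9%, none at an unadjusted p under 0.05) and 4 of 8 with the block (35.9%). The block removed the call of Ece1 between iWAT and eWAT and added that of Mme between iWAT and BAT, left out Gcgr, Ramp1 and Ramp3 in the eWAT fits, Vipr2 between iWAT and BAT and Calca against BAT for too few reads, and otherwise changed only the calls of Calcrl, Sctr, Adcyap1r1 and Vipr2 given above. Without single libraries they were 4 to 5, 7 to 8 and 6 to 7. In BAT 2 members reached a mean RPKM of 1, and 4 did with a minimum of 0.5 or with TMM-rescaled RPKM.

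Among differences that had passed, signs turned for Vipr2 between iWAT and eWAT and, between eWAT and BAT, for Crcp (0.36 without TMM factors, 0.35 and 0.31 with limma) and Mme (0.022 without TMM factors). Adcyap1r1 between iWAT and BAT was 0.032 without a filter, 0.23 without TMM factors, 0.16 and 0.10 with limma (pseudocounts 0.1 and 1), and -0.20 to 0.083 without single libraries. Gipr between eWAT and BAT was 0.40 without TMM factors and 0.22 and 0.11 with limma. Vipr2 between eWAT and BAT was -0.0069 with DESeq2, -0.20 with the eWAT row of highest RPKM, -1.26 with eWAT rows summed, and -0.21 to 0.22 without single libraries; between iWAT and eWAT it was 0.27 with eWAT rows summed. Pth1r between iWAT and eWAT was -0.0072 without a filter, -0.41 without TMM factors, -0.40 and -0.30 with limma, -0.064 without the length offset, -0.0089 and -0.38 with the other eWAT rows (highest RPKM, summed), -0.18 to 0.16 without single libraries and -0.14 without the libraries that stood apart. The exact permutation p of Vipr1 between iWAT and BAT was 0.991 on the log2(RPKM + 0.1) scale, with the sign turned, and that of Vipr1 in eWAT against either depot was 0.0606 with the transcript of highest RPKM. Leaving out the libraries that stood apart (eWAT mice 14 and 15, BAT mouse 12) and testing reads scaled to the total alone were added after the data were seen. The causes were not tested. Depth limits Gcgr, Vipr1, Glp2r and Glp1r, with 0 to 4 reads in most BAT libraries.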
